A study of Mus musculus with 11 samples.

Results

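The 9 genes described here move bicarbonate and chloride across the duodenal epithelium or make bicarbonate inside its cells: Cftr, Slc26a3, Slc26a6, Slc9a3, Slc4a4, Slc12a2, Car1, Car2 and Car4. They were set by name and are 9 of the 38283 genes in the deposited table, and all 9 were among the 14332 genes with enough counts to be tested. RNA was sequenced from mouse duodenal epithelium that had been dissociated to single cells and sorted by fluorescence, taking about as many negative as reporter-positive cells. The design compares positive with negative cells in 2 mouse strains. NeuroD1 positive (3 libraries, NeuroD1_positive_6360, _6361 and _6362) and NeuroD1 negative (3 libraries with the same numbers) came from the Neurod1-cre-eYFP strain. Glu positive (3 libraries, Glu_positive_5254, _5160 and _4665) and Glu negative (2 libraries, Glu_negative_5254 and _4665) came from the GluVenus strain. All mice had free access to standard chow, and the labels name no age, sex or treatment. By their names, the first strain marks cells in which Cre under Neurod1 control has acted, descendants included, and the second marks cells that make proglucagon. Values of a group are listed in this order of libraries. The labels do not say whether each number is 1 mouse, so the p-values below measure the spread between these libraries, which may be technical.

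Duodenal epithelial cells secrete bicarbonate to neutralise gastric acid. Carbonic anhydrases make bicarbonate from carbon dioxide and water, a basolateral sodium-bicarbonate cotransporter and a sodium-potassium-chloride cotransporter load the cell with anions, and the apical chloride channel Cftr and apical anion exchangers of the Slc26 family release them into the lumen. The apical sodium-proton exchanger Slc9a3 works with those exchangers in salt absorption. Enteroendocrine cells, the hormone-secreting cells that both reporters mark, are known mainly for controlling this secretion through hormones such as secretin.

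The libraries held between 2279595 and 5722381 counts. Neurod1 itself ran from 394 to 540 CPM (counts set per unit of library size, scaled by trimmed means or TMM, the level used throughout unless a length is named) in NeuroD1 positive libraries and from 35.6 to 49.8 CPM in NeuroD1 negative libraries. Gcg, the proglucagon gene, ran from 20199 to 60981 CPM in Glu positive libraries and from 2272 to 3166 CPM in Glu negative libraries, so both sorts went with their labels, and both genes were also detected in negative cells. The mitochondrial ribosomal RNAs mt-Rnr1 and mt-Rnr2 took 27.5% to 33.9% of the counts in 5 libraries, all of the NeuroD1 strain, and were at 0 in the other 6. mt-Rnr1 was counted in all 3 NeuroD1 positive libraries, in 2 of 3 NeuroD1 negative libraries (not in NeuroD1_negative_6360) and in 0 of 5 Glu libraries. mt-Rnr2 was counted in the 3 NeuroD1 positive libraries alone. These counts thus differ with sort and strain and, for mt-Rnr1, also within the NeuroD1 negative libraries. With both left out of the fit, the call of 1 member changed in 1 comparison, that of Car2 between the positive populations, given there. In these sorted pools, fewer cells of a type and less RNA per cell cannot be told apart.

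The stretches just upstream of the 4 apical transporters are shown first, because these 4 genes stand on the same membrane and their levels are set side by side below. Each is the 250 bases before the RefSeq start on build GRCm38.p6, plus strand, 5′ to 3′. They lie at chr6:18170437-18170686 for Cftr, chr12:31437969-31438218 for Slc26a3, chr9:108853793-108854042 for Slc26a6 and chr13:74121163-74121412 for Slc9a3. The windows of Slc26a3 and Slc26a6 fall inside the gene spans printed below, which come from GENCODE and start earlier than the RefSeq starts. Of the 9 members, 6 were found in the promoter table. Capitals mark matches on either strand to 4 motifs. TATAAA is the core promoter box of that kind. GGGCGG is the box bound by Sp1-type factors. GTTAAT is the half-site of Hnf1. CAAAGGTCA is a site of Hnf4 and other nuclear receptors.
Cftr: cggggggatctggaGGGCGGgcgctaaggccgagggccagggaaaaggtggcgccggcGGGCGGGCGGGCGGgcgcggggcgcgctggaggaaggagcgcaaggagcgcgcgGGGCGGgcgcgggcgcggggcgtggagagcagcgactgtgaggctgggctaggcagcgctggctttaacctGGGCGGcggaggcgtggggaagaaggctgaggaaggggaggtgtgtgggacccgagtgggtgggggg
Slc26a3: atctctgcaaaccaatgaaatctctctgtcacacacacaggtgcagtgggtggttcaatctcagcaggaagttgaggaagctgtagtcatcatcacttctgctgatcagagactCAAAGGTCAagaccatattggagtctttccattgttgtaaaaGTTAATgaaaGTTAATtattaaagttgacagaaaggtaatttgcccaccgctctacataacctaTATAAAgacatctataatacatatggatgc
Slc26a6: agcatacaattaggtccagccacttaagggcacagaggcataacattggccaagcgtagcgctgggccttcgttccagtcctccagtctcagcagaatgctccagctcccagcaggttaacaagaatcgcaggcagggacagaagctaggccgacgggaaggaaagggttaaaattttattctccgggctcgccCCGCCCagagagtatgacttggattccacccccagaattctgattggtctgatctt
Slc9a3: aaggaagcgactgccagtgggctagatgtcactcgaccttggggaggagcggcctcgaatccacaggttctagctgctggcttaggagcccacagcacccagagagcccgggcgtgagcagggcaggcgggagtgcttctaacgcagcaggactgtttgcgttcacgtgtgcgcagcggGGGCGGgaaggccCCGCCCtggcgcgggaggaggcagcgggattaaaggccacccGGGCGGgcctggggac
The windows differed in composition. The share of G and C was 76.4% for Cftr, 38.8% for Slc26a3, 53.2% for Slc26a6 and 67.6% for Slc9a3, beside a median of 52.4% over the same 250 bases of all 32851 promoters in the table. GGGCGG was found 6 times in Cftr (runs of capitals hold overlapping matches), 3 times in Slc9a3, 1 time in Slc26a6 and 0 times in Slc26a3. It occurs in 32.7% of all promoters. The Slc26a3 window alone of the 4 held TATAAA (1 match, found in 12.4% of all promoters), the Hnf1 half-site (2 matches, 6.43%) and CAAAGGTCA (1 match, 0.426%). CCACCC, a Klf-type motif left in lower case, had 1 match in each of the 4 and occurs in 28.1% of all promoters. The other 6 motifs searched on both strands had 0 matches in these windows. They were TTTATG (10.8% of all promoters), GATAAG (6.55%), CAAAGTCC (1.2%), CAGATG (14.4%), TGACG (17.8%) and TGTTTAC (3.17%). A match is a description of the letters and not of a bound site.

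In the Neurod1-cre-eYFP strain the apical transporters were lower in the reporter-positive cells than in the negative ones, and the cytosolic carbonic anhydrases Car1 and Car2 had levels that did not pass the test. By edgeR's quasi-likelihood test, with Benjamini-Hochberg adjustment over all genes tested, 6 of the 9 genes passed (adjusted p under 0.05) as lower in NeuroD1 positive cells and 0 as higher. Over all genes tested, 7.61% were lower and 6.57% higher. The higher ones were 46.3% of the genes called, and 31.5% with library totals in place of TMM scaling. For the 9 genes the median log2 fold change was -1.75, beside 0.02 over all genes tested. The libraries of NeuroD1 positive cells lay below all those of NeuroD1 negative cells for 7 of the 9 genes, and 17.2% of all genes tested did so.

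**Figure D1:**
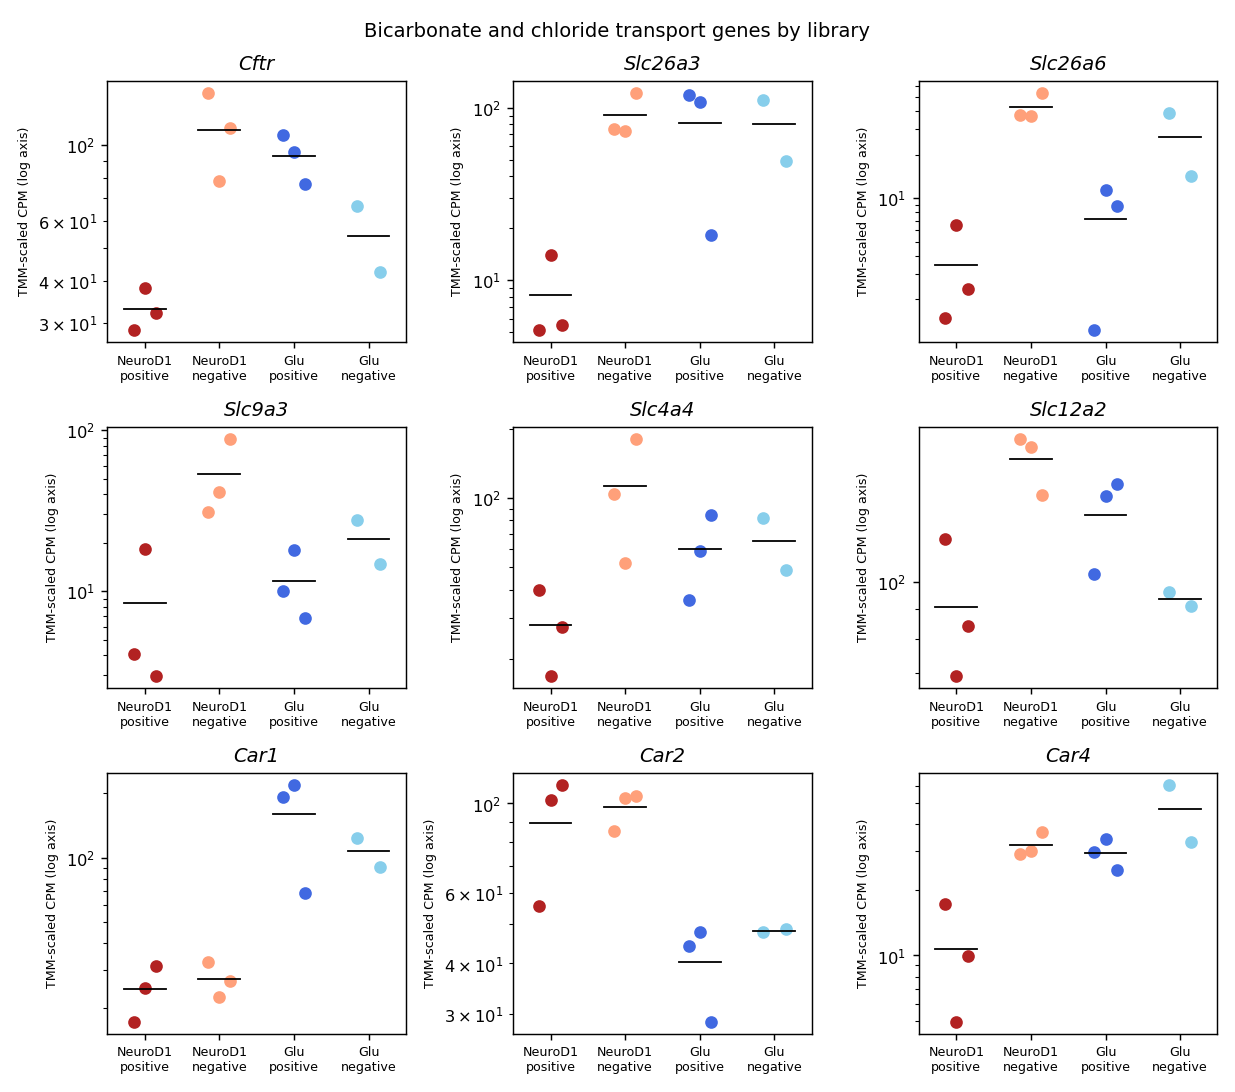
Level of each of the 9 genes by library, in TMM-scaled CPM on a log axis. Points are libraries (3, 3, 3 and 2 per group) and bars are group means. For Cftr, Slc26a3 and Slc26a6 the NeuroD1 positive libraries all sit below the NeuroD1 negative ones.

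Cftr (ENSMUSG00000041301, chr6:18170687-18322768, plus strand) encodes the cyclic-AMP-regulated chloride and bicarbonate channel of the apical membrane. It stood at 28.6, 38.2 and 32.2 CPM in NeuroD1 positive libraries, against 142, 78.3 and 112 CPM in the NeuroD1 negative libraries. The groups did not overlap. Cftr was 3.36-fold lower in NeuroD1 positive cells (log2 fold change -1.75 ± 0.36 SE, adjusted p = 0.0028). The call held under each alternative setting and each left-out library, with log2 fold changes between -2.11 and -1.53. Cftr shares 129 exonic bases with the antisense gene Gm15592, which had 136 counts over all libraries, and whether counting used strand is not given in the sources used here.

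Slc26a3 (ENSMUSG00000001225, chr12:31390871-31473917, plus strand) encodes the apical chloride-bicarbonate exchanger also called DRA, whose loss in humans gives congenital chloride diarrhoea. It stood at 5.14, 14.1 and 5.51 CPM in NeuroD1 positive libraries, against 75.4, 73.3 and 122 CPM in NeuroD1 negative libraries. Every NeuroD1 positive library was far below the lowest NeuroD1 negative one, with NeuroD1_positive_6361 the highest of the positive ones. The gene was 11.03-fold lower in NeuroD1 positive cells (log2 fold change -3.46 ± 0.63 SE, adjusted p = 0.00095). This call also held under each alternative and left-out library, with log2 fold changes between -4.06 and -3.18.

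Slc26a6 (ENSMUSG00000023259, chr9:108853283-108913049, plus strand) encodes PAT-1, an apical exchanger of chloride for bicarbonate, oxalate or formate. It stood at 1.47, 6.49 and 2.33 CPM in NeuroD1 positive libraries, resting on 4, 17 and 11 counts, against 37.5, 37.2 and 53.7 CPM in NeuroD1 negative libraries. The groups were well apart, and NeuroD1_positive_6361 was again the highest positive one. Slc26a6 was 12.6-fold lower in NeuroD1 positive cells (log2 fold change -3.65 ± 0.76 SE, adjusted p = 0.0029), with log2 fold changes between -4.43 and -3.31 under the alternatives and left-out libraries and the call held in each.

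Slc9a3 (ENSMUSG00000036123, chr13:74121457-74169442, plus strand), the absorptive sodium-proton exchanger of the brush border, stood at 4.04, 18.3 and 2.97 CPM in NeuroD1 positive libraries, against 30.8, 41.2 and 88.6 CPM in NeuroD1 negative libraries. The groups did not overlap, but both were wide. Slc9a3 was 6.42-fold lower in NeuroD1 positive cells (log2 fold change -2.68 ± 0.69 SE, adjusted p = 0.013). The call was lost without NeuroD1_positive_6360 (log2 fold change -2.35, adjusted p = 0.067), without NeuroD1_positive_6362 (-2.25, adjusted p = 0.068) and without NeuroD1_negative_6362 (-2.11, adjusted p = 0.091).

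On the basolateral side, Slc4a4 (ENSMUSG00000060961, chr5:88886818-89239653, plus strand) encodes the sodium-bicarbonate cotransporter that brings bicarbonate in from the blood. It stood at 39.7, 16.8 and 27.3 CPM in NeuroD1 positive libraries, against 104, 52.2 and 182 CPM in NeuroD1 negative libraries. The lowest negative library, NeuroD1_negative_6361, lay not far above the highest positive one, NeuroD1_positive_6360. Slc4a4 was 4.03-fold lower in NeuroD1 positive cells (log2 fold change -2.01 ± 0.49 SE, adjusted p = 0.0087). The call was lost without NeuroD1_positive_6361 (log2 fold change -1.74, adjusted p = 0.056) and without NeuroD1_negative_6362 (-1.49, adjusted p = 0.075).

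Slc12a2 (ENSMUSG00000024597, chr18:57878678-57946821, plus strand) encodes the basolateral sodium-potassium-chloride cotransporter that feeds chloride to the secreting cell. It stood at 118, 69.1 and 83.9 CPM in NeuroD1 positive libraries, against 175, 170 and 141 CPM in NeuroD1 negative libraries. The positive libraries all lay below the negative ones, and the log2 fold change was -0.84 ± 0.32 SE (95% interval -1.51 to -0.17). It did not pass (adjusted p = 0.089). It passed with DESeq2 (-0.90, adjusted p = 0.048) and when these 2 groups were fitted alone (-0.93, adjusted p = 0.018).

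The 3 carbonic anhydrases did not go together. Car4 (ENSMUSG00000000805, chr11:84957786-84966044, plus strand), the enzyme anchored to the outer face of the membrane, stood at 17.3, 4.96 and 9.96 CPM in NeuroD1 positive libraries, against 29.3, 30.1 and 36.7 CPM in NeuroD1 negative libraries. The groups did not overlap, and Car4 was 2.98-fold lower in NeuroD1 positive cells (log2 fold change -1.57 ± 0.50 SE, adjusted p = 0.043). This was the weakest of the 6 calls. It was lost with limma voom (-1.69, adjusted p = 0.058) and without NeuroD1_positive_6361 (-1.23, adjusted p = 0.18), NeuroD1_positive_6362 (-1.52, adjusted p = 0.13), NeuroD1_negative_6360 (-1.64, adjusted p = 0.094), NeuroD1_negative_6361 (-1.60, adjusted p = 0.087) or NeuroD1_negative_6362 (-1.47, adjusted p = 0.13).

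Car1 (ENSMUSG00000027556, chr3:14766216-14808368, minus strand) is a cytosolic carbonic anhydrase. It stood at 17.3, 24.8 and 31.4 CPM in NeuroD1 positive libraries and at 32.6, 22.6 and 26.6 CPM in NeuroD1 negative libraries. The groups overlapped, and the log2 fold change was -0.16 ± 0.42 SE (95% interval -1.04 to 0.73, adjusted p = 0.87). Car2 (ENSMUSG00000027562, chr3:14886273-14900770, plus strand), the fast cytosolic enzyme of many ion-transporting epithelia, stood at 55.5, 102 and 111 CPM in NeuroD1 positive libraries and at 85.5, 103 and 104 CPM in NeuroD1 negative libraries. Those groups overlapped too, with a log2 fold change of -0.12 ± 0.36 SE (95% interval -0.88 to 0.63, adjusted p = 0.89). Without NeuroD1_positive_6360, the lowest library for both genes, the log2 fold changes were 0.04 for Car1 and 0.13 for Car2.

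Markers of other cell types moved in the same comparison. Of 12 absorptive enterocyte markers, 10 were lower in NeuroD1 positive cells and 0 higher, with a median log2 fold change of -3.17. Sis (0.47) and Mep1a (0.37) did not pass. The summed level, which follows the most abundant genes, ran from 4777 to 6191 CPM in NeuroD1 positive libraries, against 7939 to 23554 CPM in NeuroD1 negative libraries. Of 8 immune markers all 8 were lower, with sums of 700 to 1549 CPM in NeuroD1 positive libraries, against 17476 to 38215 CPM in NeuroD1 negative libraries. Of 8 crypt stem and cycling markers 1 was lower, with sums of 311 to 466 CPM in NeuroD1 positive libraries, against 588 to 858 CPM in NeuroD1 negative libraries. Of 7 goblet markers 5 were lower and 2 higher, with sums of 1458 to 1892 CPM in NeuroD1 positive libraries, against 2531 to 3668 CPM in NeuroD1 negative libraries. Paneth markers were lower in 6 of 6 (124 to 259 CPM in NeuroD1 positive libraries, against 560 to 2743 CPM in NeuroD1 negative libraries). Tuft markers were lower in 3 of 6, and Gfi1b was at 0 in all NeuroD1 positive libraries. Stromal and endothelial markers were lower in 5 of 7. All 10 enteroendocrine markers were higher in positive cells, in each strain. The part of these markers in the members' changes was not tested.

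In the GluVenus strain no difference of the 9 genes between positive and negative cells passed. Mean levels in the positive cells were higher for Cftr, Slc12a2, Car1 and, by little, Slc26a3, and lower for the other 5 genes. By edgeR 0 of 9 were called in either direction, where 4.22% of all genes tested were higher and 2.41% lower in Glu positive cells. At an unadjusted p under 0.05 there was 1 (Slc26a6), where 23.4% of all genes tested met that mark, and both DESeq2 and limma voom called 0. Of all genes called here, 63.6% were higher, and 42.4% with library totals. For the 9 genes the median log2 fold change was -0.12, beside 0.12 over all genes tested. Glu positive libraries lay below all Glu negative ones for 1 gene (16.5% of all genes tested) and above for 2 genes (15.8%). With 2 Glu negative libraries, differences of moderate size could not be resolved, as the intervals below show.

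Among the apical transporters, Cftr stood at 107, 95.1 and 77.1 CPM in Glu positive libraries, against 66.1 and 42.4 CPM in Glu negative libraries. Every Glu positive library was above both negative ones, but the log2 fold change of 0.78 ± 0.40 SE did not pass (95% interval -0.06 to 1.62, adjusted p = 0.25). Slc26a3 stood at 119, 108 and 18.2 CPM in Glu positive libraries, against 111 and 49.3 CPM in Glu negative libraries. Glu_positive_4665 was the lowest of the 5 by far, and Glu_negative_4665 was the lower of the negative ones. The log2 fold change was 0.02 ± 0.62 SE (95% interval -1.28 to 1.32), and it was -0.36 without Glu_positive_5254, -0.25 without Glu_positive_5160 and -0.49 without Glu_negative_4665. Slc26a6 stood at 1.21, 11.4 and 8.83 CPM in Glu positive libraries, against 39.1 and 14.3 CPM in Glu negative libraries. All positive libraries were below the negative ones, with a log2 fold change of -1.89 ± 0.75 SE that did not pass (95% interval -3.46 to -0.33, adjusted p = 0.14). Slc9a3 stood at 10.01, 17.9 and 6.84 CPM in Glu positive libraries, against 27.6 and 14.8 CPM in Glu negative libraries. Those groups overlapped, and the log2 fold change was -0.88 ± 0.72 SE (95% interval -2.38 to 0.62).

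On the basolateral side, Slc4a4 stood at 36.1, 58.9 and 84.7 CPM in Glu positive libraries and at 81.8 and 48.7 CPM in Glu negative libraries, a log2 fold change of -0.12 ± 0.52 SE. It was 0.15 without Glu_positive_5254 and 0.33 without Glu_negative_5254. Slc12a2 stood at 103, 140 and 147 CPM in Glu positive libraries, against 96.0 and 90.8 CPM in Glu negative libraries. Its positive libraries lay above the negative ones, with a log2 fold change of 0.48 ± 0.36 SE (95% interval -0.27 to 1.23).

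Of the carbonic anhydrases, Car1 stood at 191, 219 and 68.2 CPM in Glu positive libraries, against 124 and 90.2 CPM in Glu negative libraries, with Glu_positive_4665 the lowest of the 5. Car2 stood at 44.3, 47.9 and 28.6 CPM in Glu positive libraries and at 47.8 and 48.6 CPM in Glu negative libraries. Car4 stood at 29.7, 34.1 and 24.8 CPM in Glu positive libraries, against 60.8 and 33.1 CPM in Glu negative libraries. The groups overlapped for all 3 enzymes. Their log2 fold changes were 0.58 ± 0.46 SE for Car1 (95% interval -0.39 to 1.54), -0.26 ± 0.40 SE for Car2 (95% interval -1.11 to 0.58) and -0.67 ± 0.53 SE for Car4 (95% interval -1.78 to 0.45).

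The same marker lists were counted in this strain. Of 12 enterocyte markers 4 were lower in Glu positive cells and 1, Sis (log2 fold change 2.03), was higher. The list's median log2 fold change was -0.90. Its sums went the other way, at 6017 to 8535 CPM in Glu positive libraries, against 5026 to 6450 CPM in Glu negative libraries. Of 8 immune markers 5 were lower, with sums of 1477 to 5118 CPM in Glu positive libraries, against 13494 to 90993 CPM in Glu negative libraries. Crypt stem and cycling markers had 0 of 8 called, with sums of 462 to 1054 CPM in Glu positive libraries and 532 to 544 CPM in Glu negative libraries. Lower in Glu positive cells were also 1 of 7 goblet, 2 of 6 tuft, 0 of 6 Paneth and 0 of 7 stromal and endothelial markers, and none of these was higher. Their part in the members' values was not tested.

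**Figure D2:**
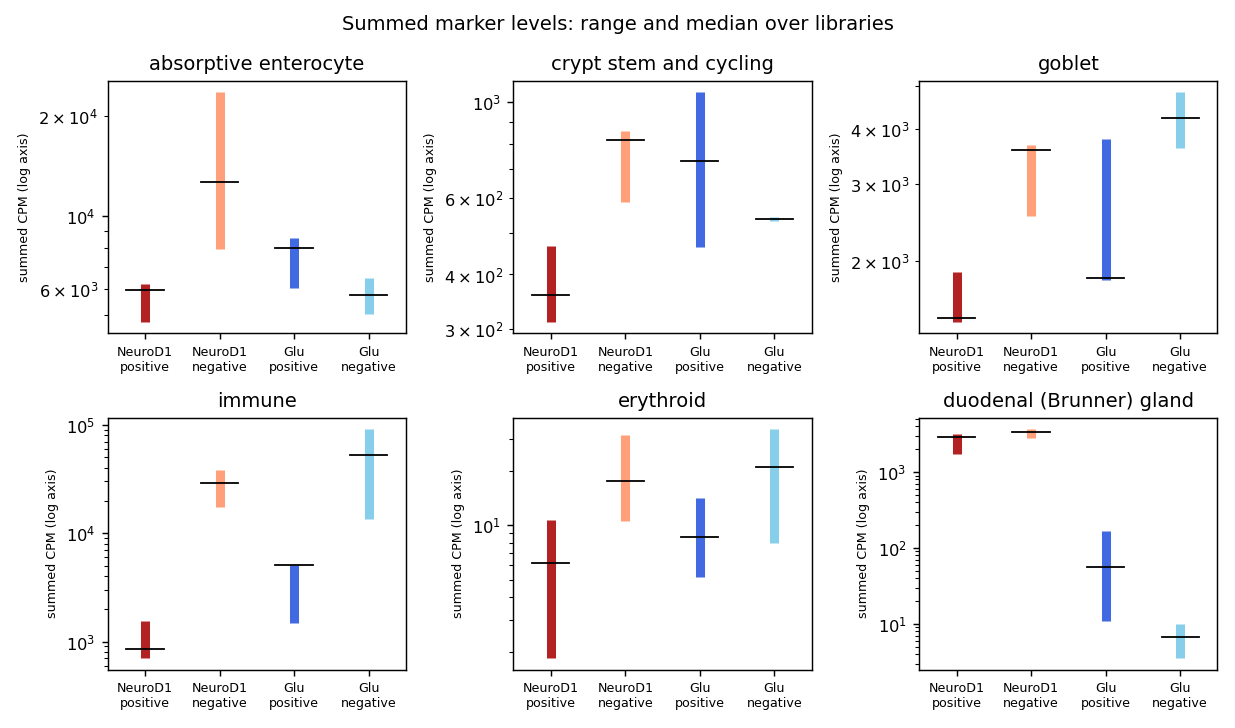
Summed TMM-scaled CPM of 6 marker lists in each group, on log axes. Vertical bars span the lowest to the highest library and the horizontal line is the median. The Brunner gland list sums to 1735 to 3664 CPM in NeuroD1 libraries and to 3.54 to 166 CPM in Glu libraries.

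Whether the change differed between the strains was tested directly, as the NeuroD1 change minus the Glu change. By edgeR 0 of the 9 genes were called, where 0.112% of all genes tested were (81.2% of them positive, and 56.0% with library totals). At an unadjusted p under 0.05 there were 4 (Cftr, Slc26a3, Slc4a4 and Slc12a2), and 10.9% of all genes tested met that mark. DESeq2 called 2 of the 9 and limma voom 0. For the 9 genes the median difference was -1.76, beside -0.20 over all genes tested, so more of all genes were negative than positive too. The difference was negative for 8 of the 9 genes, with Car2 the exception at 0.14, which was -0.05 without NeuroD1_positive_6362 and -0.06 without Glu_positive_4665.

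Cftr had a log2 change of -1.75 in the NeuroD1 strain and of 0.78 in the Glu strain, a difference of -2.53 ± 0.54 SE (95% interval -3.67 to -1.39, adjusted p = 0.085). It passed without Glu_positive_5254 (-2.42, adjusted p = 0.049), without Glu_positive_4665 (-2.65, adjusted p = 0.043), with DESeq2 (-2.58, adjusted p = 0.0023) and with no filter on low counts (-2.53, adjusted p = 0.014). Slc26a3 had a log2 change of -3.46 in the NeuroD1 strain and of 0.02 in the Glu strain, a difference of -3.48 ± 0.89 SE (95% interval -5.35 to -1.61, adjusted p = 0.15). It passed without Glu_positive_4665 (-3.96, adjusted p = 0.022), with DESeq2 (-3.56, adjusted p = 0.014) and with no filter (-3.46, adjusted p = 0.00029). For Slc4a4 the difference was -1.89 ± 0.72 SE (adjusted p = 0.33) and for Slc12a2 it was -1.32 ± 0.48 SE (adjusted p = 0.31). For Slc26a6 it was -1.76 ± 1.05 SE and for Slc9a3 -1.80 ± 1.00 SE, with 95% intervals that span 0. For Car1 it was -0.73 ± 0.62 SE and for Car4 -0.91 ± 0.73 SE.

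**Figure D3:**
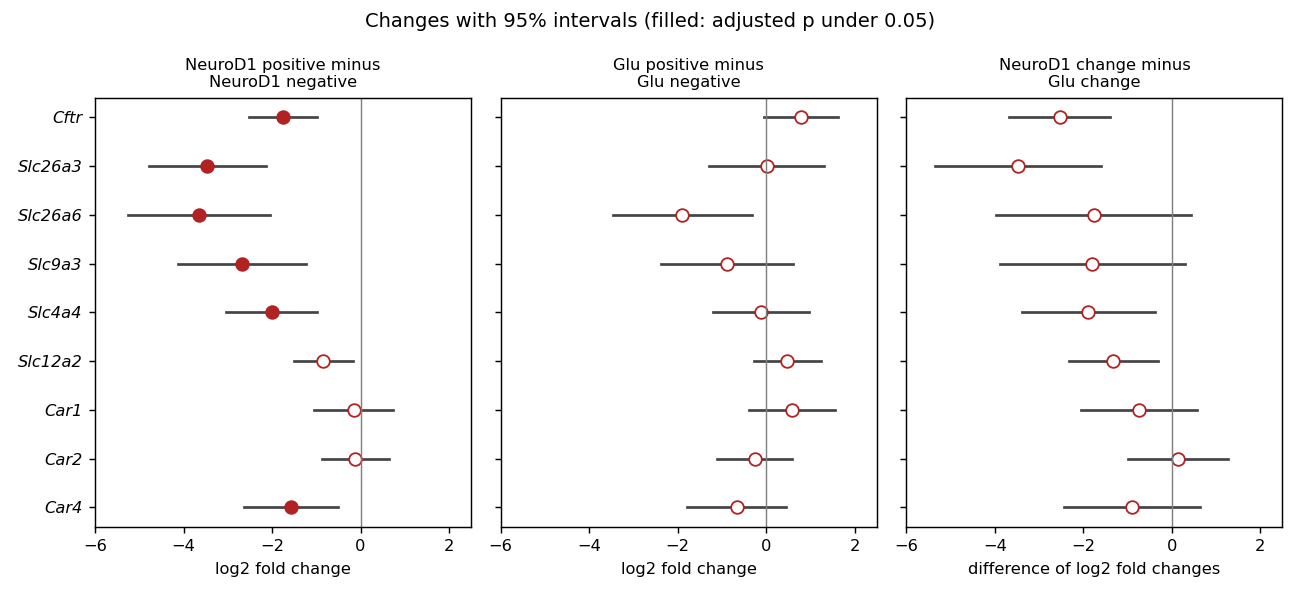
Log2 fold changes of the 9 genes in each strain and their difference, with 95% intervals from edgeR. Filled points have an adjusted p under 0.05: 6 genes in the NeuroD1 strain, and none in the Glu strain or in the difference.

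Setting the positive cells of the strains against each other, 3 of the 9 genes were lower in NeuroD1 positive than in Glu positive cells and 0 were higher, where 8.13% of all genes tested were called, 4.95% lower and 3.18% higher. Of all genes called, 39.1% were higher, 19.3% with library totals and 62.4% with limma voom. Strain and any difference in handling cannot be told apart here. Car1 was 6.47-fold lower in NeuroD1 positive cells (log2 fold change -2.69 ± 0.44 SE, adjusted p = 0.0010), and its highest NeuroD1 positive library, at 31.4 CPM, was below the lowest Glu positive one, at 68.2 CPM. This call held under each alternative and left-out library, with log2 fold changes between -3.06 and -2.39. Slc26a3 was 9.94-fold lower in NeuroD1 positive cells (log2 fold change -3.31 ± 0.62 SE, adjusted p = 0.0030). It was lost with limma voom (-2.83, adjusted p = 0.076), and the highest NeuroD1 positive library (14.1 CPM) came close to Glu_positive_4665 (18.2 CPM). Cftr was 2.82-fold lower in NeuroD1 positive cells (log2 fold change -1.49 ± 0.36 SE, adjusted p = 0.015). Its call was lost without NeuroD1_positive_6360 (-1.40, adjusted p = 0.076), without NeuroD1_positive_6362 (-1.47, adjusted p = 0.063) and when these groups were fitted alone (-1.50, adjusted p = 0.061).

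Car2 went the other way in value, at 55.5 to 111 CPM in NeuroD1 positive libraries, against 28.6 to 47.9 CPM in Glu positive libraries. The groups did not overlap, and its log2 fold change of 1.16 ± 0.37 SE did not pass (adjusted p = 0.058). It passed without NeuroD1_positive_6360 (1.41, adjusted p = 0.048), with mt-Rnr1 and mt-Rnr2 left out (1.19, adjusted p = 0.0498) and with DESeq2 (1.10, adjusted p = 0.046). Car4 had a log2 fold change of -1.46 ± 0.50 SE (adjusted p = 0.079), which passed with library totals (-1.77, adjusted p = 0.042) and with DESeq2 (-1.51, adjusted p = 0.025). For Slc4a4 the log2 fold change was -1.10 ± 0.48 SE, for Slc26a6 -1.08 ± 0.73 SE, for Slc12a2 -0.52 ± 0.32 SE and for Slc9a3 -0.47 ± 0.67 SE, and none of these 4 passed.

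The negative cells of the strains were also compared. By edgeR 0 of the 9 genes were called between NeuroD1 negative and Glu negative cells, where 0.488% of all genes tested were (74.3% of them higher, and 54.8% with library totals). At an unadjusted p under 0.05 there were 4 (Cftr, Slc12a2, Car1 and Car2), and 9.04% of all genes tested met that mark. DESeq2 called 1, Car1, and limma voom 0. Car1 stood at 22.6 to 32.6 CPM in NeuroD1 negative libraries, against 90.2 and 124 CPM in Glu negative libraries. This is a log2 fold change of -1.96 ± 0.46 SE (95% interval -2.92 to -1.002, adjusted p = 0.071), which passed with library totals (-2.29, adjusted p = 0.021), with no filter (-1.98, adjusted p = 0.0057), with DESeq2 (-1.97, adjusted p = 0.020) and with these groups fitted alone (-1.97, adjusted p = 0.019). Car2 had a log2 fold change of 1.02 ± 0.42 SE, Cftr of 1.03 ± 0.40 SE and Slc12a2 of 0.79 ± 0.36 SE. Both Car1 and Car2 thus had fold changes of the same sign between strains in positive and in negative cells, lower for Car1 and higher for Car2 in NeuroD1 libraries.

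Markers of Brunner glands, the mucus glands under the duodenal epithelium, went with the strain. The summed level of Muc6, Tff2, Muc5b and Pgc ran from 1735 to 3196 CPM in NeuroD1 positive libraries, from 10.9 to 166 CPM in Glu positive libraries, from 2783 to 3664 CPM in NeuroD1 negative libraries and from 3.54 to 9.94 CPM in Glu negative libraries. Tff2 was at 0 in all 5 Glu libraries. The erythroid list, added because red blood cells hold much Car1 and Car2, summed to 1.84 to 10.7 CPM in NeuroD1 positive libraries, 5.16 to 14.1 CPM in Glu positive libraries, 10.5 to 31.4 CPM in NeuroD1 negative libraries and 7.98 to 33.8 CPM in Glu negative libraries, with 8 of its 9 genes in the table. Of its 5 tested genes, 1 was called between positive and negative cells of the NeuroD1 strain and 0 in the Glu strain. This was Hba-a1, at 0 in NeuroD1 positive libraries (log2 fold change -6.15 ± 1.91 SE, adjusted p = 0.040). The list's median log2 fold change was -1.98 in the NeuroD1 strain and -1.92 in the Glu strain. Slc4a1, also in the list, was at 0 in NeuroD1 positive, Glu positive and Glu negative libraries and had 1 count in NeuroD1 negative libraries. Exocrine pancreas markers summed to at most 26.3 CPM in any library. The part of the Brunner gland list in the strain differences was not tested.

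Levels of different genes were compared per kilobase of exon, as TMM-scaled CPM per kb. Carbonic anhydrases led in each group. In NeuroD1 positive cells Car2 was highest, at 37.0 ± 12.4 CPM per kb (SD, n = 3), followed by Car1 at 19.6 ± 5.65, whose range overlapped it. Clear of these came Slc12a2 at 8.28 ± 2.31, Car4 at 5.46 ± 3.15 and Cftr at 4.25 ± 0.62, with ranges that overlapped from each to the next. Slc4a4 came next at 2.58 ± 1.06, its highest library (3.67) barely below the lowest of Cftr (3.69). Slc9a3 at 1.53 ± 1.56, Slc26a3 at 1.30 ± 0.80 and Slc26a6 at 0.63 ± 0.50 followed. From Slc4a4 on, each range overlapped the next. In NeuroD1 negative cells Car2 led at 40.4 ± 4.39 CPM per kb, clear of Car1 at 21.9 ± 4.04, and the other 7 genes lay between 7.91 (Slc26a6) and 16.3 (Car4), each overlapping the next.

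In Glu positive cells Car1 led at 128 ± 64.3 CPM per kb (SD, n = 3), clear of Car2 at 16.6 ± 4.23 and Car4 at 15.03 ± 2.37, and in Glu negative cells Car1 led at 85.7 ± 18.9 (SD, n = 2), clear of Car4 at 23.9 ± 9.98 and Car2 at 19.9 ± 0.25. Slc26a3 stood at 12.8 ± 8.65 CPM per kb in Glu positive cells and 12.6 ± 6.90 in Glu negative cells, beside 1.30 in NeuroD1 positive and 14.2 in NeuroD1 negative cells. Cftr stood at 12.0 ± 1.95 in Glu positive and 6.99 ± 2.16 in Glu negative cells. The lowest gene was Slc26a6 in NeuroD1 positive (0.63), NeuroD1 negative (7.91) and Glu positive cells (1.32 ± 0.98) and Slc9a3 in Glu negative cells (3.86 ± 1.64). Placing by length depends on the length used. The exons of Slc26a3 together span 6369 bases while its longest transcript has 3462. By that transcript it moved to place 2 in NeuroD1 negative cells (place 6 by exons) and to place 2 in Glu positive cells (place 4 by exons). By longest transcripts Car1 moved from place 2 to place 5 in NeuroD1 negative cells, and Car2 from place 2 to place 4 in Glu positive cells. The gene in place 1 was the same by either length in each group.

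**Figure D4:**
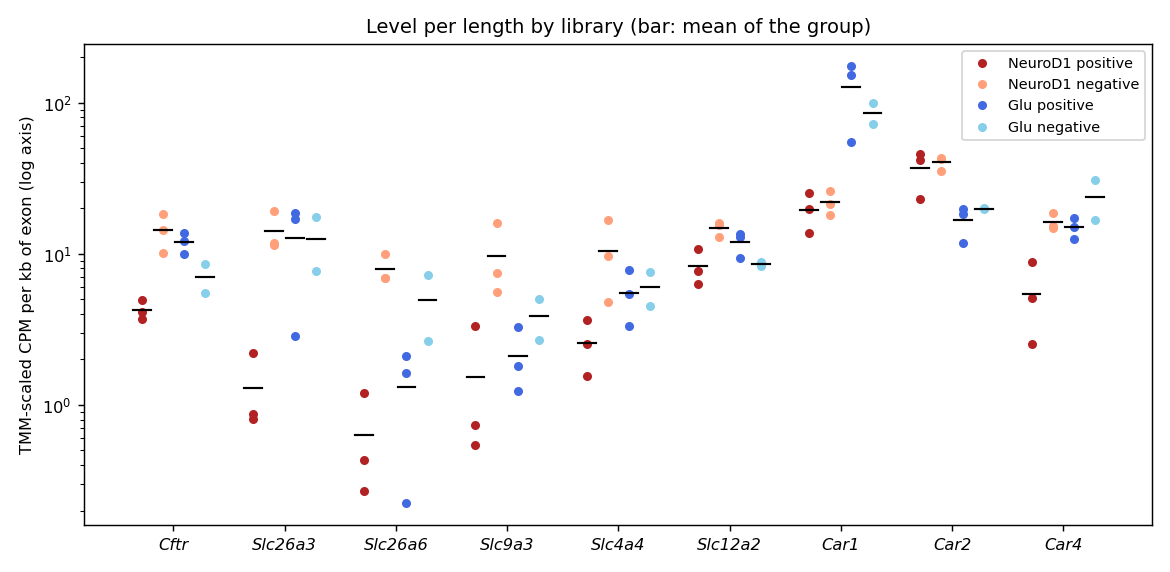
Level per length of the 9 genes by library, in TMM-scaled CPM per kb of exon on a log axis. Points are libraries and bars are group means. Car1 in Glu cells (means of 128 and 85.7) and Car2 in NeuroD1 cells (means of 37.0 and 40.4) are the highest.

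The order of the 4 groups differed between genes. For Cftr the means in CPM were highest in NeuroD1 negative cells (111) and Glu positive cells (93.1), which overlapped, then Glu negative cells (54.3) and NeuroD1 positive cells (33.0), each clear of the one before. For Slc26a3 the NeuroD1 positive cells (8.26) stood below the other 3 groups, whose means of 80.4 to 90.2 overlapped. For Slc26a6 both negative populations (42.8 in NeuroD1 and 26.7 in Glu) stood above both positive ones (7.14 in Glu and 3.43 in NeuroD1). Slc9a3 was highest in NeuroD1 negative cells (53.5), clear of the other 3 groups, whose neighbours overlapped. For Slc4a4 all neighbouring groups overlapped. Slc12a2 was highest in NeuroD1 negative (162) and Glu positive cells (130), which overlapped. Glu negative cells (93.4) stood below Glu positive cells, and NeuroD1 positive cells (90.4) overlapped both Glu populations. Car4 was lowest in NeuroD1 positive cells (10.7), clear of Glu positive cells (29.5). Car1 split by strain, with Glu positive (159) and Glu negative (107) above NeuroD1 negative (27.3) and NeuroD1 positive cells (24.5). Car2 split by strain the other way, with NeuroD1 negative (97.7) and NeuroD1 positive (89.6) above Glu negative (48.2) and Glu positive cells (40.3).

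As a description over the 11 libraries, which share groups, strains and sorts, the genes whose log2 level ran most like each member were found among 8277 genes. Cftr ran most like Ldb3 (Pearson r = 0.92), Slc26a3 like Lgals3 (0.97), Slc26a6 like Sult1b1 (0.95), Slc9a3 like Itgb4 (0.94), Slc4a4 like Slc25a37 (0.96), Slc12a2 like Kcne3 (0.87), Car1 like Insl5 (0.99), Car2 like Pcdh17 (0.94) and Car4 like Mtmr12 (0.95). Alpi, the brush-border alkaline phosphatase, was among the 3 most like Slc9a3 (0.92). Between members, r ran from -0.68 for Car1 and Car2 to 0.87 for Slc26a6 and Slc9a3. Cftr and Slc26a3 had r = 0.82, Cftr and Car2 had r = -0.10, and Car2 and Car4 had r = -0.43.

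The wider pathway was followed in 7 lists of other genes: bicarbonate transporters and anion exchangers, sodium-proton exchangers and scaffolds, other carbonic anhydrases, other chloride channels, other cation-chloride cotransporters, the sodium pump and potassium channels that drive secretion, and regulators of secretion. Of 97 genes, 75 were tested. In the NeuroD1 strain 8 were higher and 13 lower in positive cells (28%, beside 14.2% of all genes tested), and in the Glu strain 5 were higher and 2 lower (9.33%, beside 6.64%). The difference between strains was called for 0 of the 75 by edgeR and limma voom and for 1 by DESeq2, with 15 at an unadjusted p under 0.05, a mark that 10.9% of all genes tested met. In the NeuroD1 strain these lists held genes called in both directions. Of the 9 members 0 were called higher there, where 6.57% of all genes tested were. A set of 9 is too small to set against the lists in this.

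**Figure D5:**
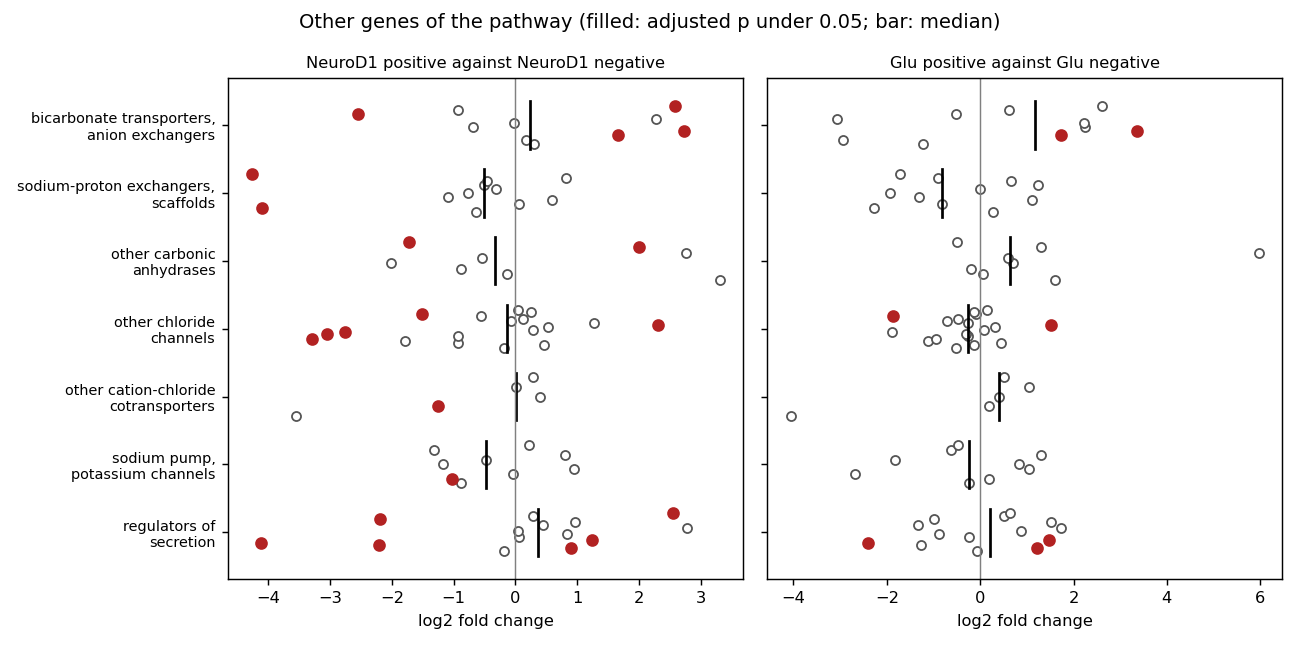
Log2 fold changes of the 75 tested genes of the 7 pathway lists, positive against negative cells, in each strain. Each point is a gene, filled where the adjusted p is under 0.05, and the vertical bar is the list's median. Filled points fall on both sides of 0.

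Of 10 tested anion transporters, 3 were higher in NeuroD1 positive cells and 1 lower, with a median log2 fold change of 0.24, and 2 were higher in Glu positive cells, with a median of 1.18. Slc26a4 (pendrin, a chloride, iodide and bicarbonate exchanger) had 7.25 to 11.4 CPM in NeuroD1 positive libraries, against 0.87 to 2.51 CPM in NeuroD1 negative libraries (log2 fold change 2.73 ± 0.76 SE, adjusted p = 0.020). In the Glu strain it had 11.4 to 34.3 CPM in positive libraries, against 1.26 to 2.65 CPM in negative libraries (3.36 ± 0.85 SE, adjusted p = 0.024). Slc4a8, a sodium-driven chloride-bicarbonate exchanger, was higher in NeuroD1 positive cells (2.59 ± 0.70 SE, adjusted p = 0.017) at 15.4 to 34.0 CPM, against 2.82 to 6.55 CPM in NeuroD1 negative cells. In the Glu strain it had 2.60 ± 0.82 SE and did not pass (adjusted p = 0.065). Slc26a2, the sulfate transporter, was higher in both positive populations, at 435 ± 22.5 CPM in NeuroD1 positive cells, against 137 ± 39.5 CPM in NeuroD1 negative cells (SD, n = 3 each; log2 fold change 1.67 ± 0.37 SE), and at 275 to 730 CPM in Glu positive libraries, against 108 and 167 CPM in Glu negative libraries (1.74 ± 0.43 SE). Slc4a5, an electrogenic sodium-bicarbonate cotransporter, was lower in NeuroD1 positive cells (-2.55 ± 0.80 SE), at 1.53 to 12.3 CPM, against 26.3 to 39.2 CPM in NeuroD1 negative cells.

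In the NeuroD1 strain the call of Slc26a4 was lost without NeuroD1_positive_6360, NeuroD1_positive_6362, NeuroD1_negative_6360 or NeuroD1_negative_6362 (log2 fold changes of 2.49 to 2.70). The call of Slc4a8 was lost without NeuroD1_positive_6361, NeuroD1_positive_6362, NeuroD1_negative_6360 or NeuroD1_negative_6361 (2.296 to 2.60). The call of Slc4a5 was lost without each library but NeuroD1_positive_6362 (-2.72 to -2.13). Slc26a2 in the NeuroD1 strain was called whichever library was left out. Between the positive populations, Slc4a2, a widespread anion exchanger, was lower in NeuroD1 positive cells (-2.52 ± 0.70 SE, adjusted p = 0.031), but this turned on Glu_positive_5254, the highest Glu positive library of a group that ran from 22.7 to 322 CPM, against 19.8 to 27.1 CPM in NeuroD1 positive libraries. Without that library it was -0.65 (adjusted p = 0.48), and it was also lost without any 1 of the NeuroD1 positive libraries (log2 fold changes as low as -2.63).

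Of 11 tested sodium-proton exchangers and scaffolds, 2 were lower in NeuroD1 positive cells and 0 were called in the Glu strain. Pdzk1, a scaffold of apical transporters, had 6 counts in NeuroD1 positive and 90 in NeuroD1 negative libraries (log2 fold change -4.11 ± 1.18 SE, adjusted p = 0.024). Its call was lost without NeuroD1_positive_6360 or NeuroD1_positive_6362 or NeuroD1_negative_6362 (-3.87 to -2.79). Slc9a9, an endosomal exchanger, had 3 counts in NeuroD1 positive libraries, against 54 in NeuroD1 negative libraries, a scaled ratio of 18.2 of negative over positive (95% counting interval 5.9 to 91.0). Glu positive libraries had 99 counts, a ratio of 25.1 over NeuroD1 positive (8.35 to 124). Slc9a4, known from the basolateral membrane of stomach cells, went with the strain. It had 86 counts in NeuroD1 positive, against 0 in Glu positive libraries, and 102 in NeuroD1 negative, against 0 in Glu negative libraries. Set against a floor of 3 counts over the group, Slc9a4 was at least 37.7-fold higher in NeuroD1 positive than in Glu positive cells. It was at least 39.8-fold higher in NeuroD1 negative than in Glu negative cells. Both bounds cover counting error only and leave out the spread between libraries. The edgeR call of Slc9a4 between the negative populations was lost without either Glu negative library.

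Of 8 tested other carbonic anhydrases, 1 was higher in NeuroD1 positive cells and 1 lower. Car8, a carbonic anhydrase-related protein without the enzyme's activity, had 80.5 to 165 CPM in NeuroD1 positive libraries, against 20.4 to 33.6 CPM in NeuroD1 negative libraries (log2 fold change 2.01 ± 0.39 SE, adjusted p = 0.0017). This call held with each library left out. In Glu positive libraries Car8 had 118 to 140 CPM, against 38.7 and 67.4 CPM in Glu negative libraries (1.31 ± 0.43 SE, adjusted p = 0.078). Car9, a membrane enzyme known for its induction by low oxygen, was lower at 13.2 ± 1.92 CPM in NeuroD1 positive cells, against 43.7 ± 5.63 CPM in NeuroD1 negative cells (SD, n = 3 each; -1.73 ± 0.46 SE). It was lost without NeuroD1_positive_6360 or NeuroD1_positive_6361 or NeuroD1_negative_6360 (-1.74 to -1.61). Car11 had 51 counts in NeuroD1 positive and 4 in Glu positive libraries (4.13 ± 1.19 SE, adjusted p = 0.037), which was lost without Glu_positive_5254 or Glu_positive_4665 (3.64 and 4.04).

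Of 18 other chloride channels and their relatives, 1 was higher in NeuroD1 positive cells and 4 lower, and 1 was higher and 1 lower in Glu positive cells. Clca1, a secreted goblet cell product once taken for a channel and also a member of the goblet list, had 16.9 to 54.5 CPM in NeuroD1 positive libraries, against 342 to 390 CPM in NeuroD1 negative libraries (log2 fold change -3.30 ± 0.47 SE, adjusted p = 0.00010). Its relative Clca4b had 17.9 to 31.6 CPM in NeuroD1 positive libraries, against 103 to 341 CPM in NeuroD1 negative libraries (-3.06 ± 0.48 SE). The chloride channel Clcn2 had 3.67 to 10.3 CPM in NeuroD1 positive libraries, against 29.6 to 77.7 CPM in NeuroD1 negative libraries (-2.76 ± 0.58 SE). Clcn5, an endosomal chloride-proton exchanger, was higher, at 203 ± 11.5 CPM in NeuroD1 positive cells, against 40.9 ± 7.16 CPM in NeuroD1 negative cells (SD, n = 3 each; 2.31 ± 0.34 SE). These 4 calls held with each library left out. Clcn5 was also higher in Glu positive libraries (62.8 to 110 CPM) than in Glu negative libraries (27.0 and 29.4 CPM; 1.51 ± 0.39 SE), and it was higher in NeuroD1 positive than in Glu positive cells (1.34 ± 0.33 SE), a call lost without NeuroD1_positive_6360 or NeuroD1_positive_6362 (1.30 and 1.35). Clic4, an intracellular channel-like protein, was lower in Glu positive libraries at 15.5 to 24.8 CPM, against 61.9 and 87.8 CPM in Glu negative libraries (-1.88 ± 0.45 SE). Clca1 was lower in NeuroD1 positive than in Glu positive cells (-2.51 ± 0.46 SE).

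Of 9 genes for the sodium pump and potassium channels, 1, the pump's beta subunit Atp1b1, was called between positive and negative cells of the NeuroD1 strain, lower in NeuroD1 positive cells (645 ± 115 CPM, against 1313 ± 526 CPM in NeuroD1 negative cells, SD, n = 3 each; log2 fold change -1.03 ± 0.32 SE). It was lost without each library but NeuroD1_negative_6361 (-1.13 to -0.68). Kcnj15, a potassium channel, was higher in NeuroD1 positive than in Glu positive cells (9.55 to 22.3 CPM, against 0.43 to 2.41 CPM; 3.43 ± 0.80 SE), which was lost without NeuroD1_positive_6362 (3.002).

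Of 14 tested regulators of secretion, 3 were higher in NeuroD1 positive cells and 3 lower, and 2 were higher and 1 lower in Glu positive cells. Guca2b (uroguanylin) and Guca2a (guanylin) are luminal peptides that open Cftr through the guanylate cyclase Gucy2c. Guca2b had 3.82 to 12.1 CPM in NeuroD1 positive libraries, against 93.4 to 196 CPM in NeuroD1 negative libraries (log2 fold change -4.12 ± 0.55 SE, adjusted p = 4.6e-05), and 9.54 to 26.9 CPM in Glu positive libraries, against 76.9 and 84.9 CPM in Glu negative libraries (-2.41 ± 0.53 SE, adjusted p = 0.011). Guca2a had 4.77 to 10.7 CPM in NeuroD1 positive libraries, against 33.6 to 38.2 CPM in NeuroD1 negative libraries (-2.21 ± 0.49 SE), and was lower in NeuroD1 positive than in Glu positive cells (-2.71 ± 0.50 SE). The NeuroD1 calls of both peptides held with each library left out. Gucy2c, their receptor, was higher in both positive populations, with 184 to 280 CPM in NeuroD1 positive libraries, against 66.3 to 118 CPM in NeuroD1 negative libraries (1.25 ± 0.34 SE), and 153 to 276 CPM in Glu positive libraries, against 65.8 and 90.4 CPM in Glu negative libraries (1.47 ± 0.39 SE). Wnk4, a kinase that regulates chloride transporters, was higher in NeuroD1 positive cells (28.3 to 74.4 CPM, against 3.70 to 17.1 CPM in NeuroD1 negative cells; 2.55 ± 0.70 SE). Ahcyl1, known as IRBIT and an activator of Cftr and Slc4a4, was higher in NeuroD1 positive cells (508 ± 20.2 CPM, against 273 ± 41.9 CPM in NeuroD1 negative cells, SD, n = 3 each; 0.89 ± 0.29 SE) and in Glu positive cells (220 to 332 CPM, against 122 and 127 CPM in Glu negative cells; 1.22 ± 0.33 SE).

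Several of these regulator calls turned on single libraries. In the NeuroD1 strain Gucy2c was lost without NeuroD1_positive_6362, NeuroD1_negative_6360 or NeuroD1_negative_6361 (log2 fold changes of 1.05 to 1.26), Wnk4 without NeuroD1_positive_6362, NeuroD1_negative_6360 or NeuroD1_negative_6362 (2.14 to 2.35), and Ahcyl1 without any 1 of the 6 libraries (0.78 to 0.98). In the Glu strain all 7 calls of the pathway lists were lost without Glu_negative_5254 and without Glu_negative_4665, when 1 negative library remained and its spread was taken from the other groups. Without 1 of these libraries the log2 fold changes were 1.21 and 1.26 for Ahcyl1, 1.45 and 1.56 for Clcn5, -2.09 and -1.58 for Clic4, -2.49 and -2.35 for Guca2b, and 1.46 and 2.08 for Slc26a2. For Gucy2c, also lost without Glu_positive_4665, they ran from 1.27 to 1.74, and for Slc26a4, also lost without Glu_positive_5254, from 2.73 to 3.94.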

How the data were processed

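Per the labels' protocols, RNA from sorted cells was amplified with an Ovation RNA-seq kit before library construction. Cufflinks 2.2.1, TopHat2 2.1.0, CASAVA and build GRCm38 are listed, without roles, per the submitters' processing notes. Which tool counted, with what annotation and strand setting, is not given in the sources used here. What the authors deposited is 1 table of counts for 38283 Ensembl genes in 11 libraries. Its values were treated as estimated counts, because 848 genes, none of them a member, held values that are not whole, and the deposited estimated counts were rounded. Symbols, coordinates and exon lengths came from GENCODE release M21.

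Genes were filtered with filterByExpr, leaving 14332. TMM scaling and edgeR 4.0.16's quasi-likelihood test (R 4.3.3) were applied in 1 fit of the 4 group means over all 11 libraries, which share 1 estimate of the spread, without a replicate block. Genes were called at an adjusted p under 0.05, by Benjamini-Hochberg adjustment over all genes tested in each of 5 comparisons. Standard errors were obtained from the absolute log2 fold change and the root of its F statistic, and 95% intervals from these. The procedure was tested on simulated data. Alternatives were RLE scaling, library totals, no filter or a stricter one (5 CPM in 2 libraries), DESeq2 1.42.0, limma voom (limma 3.58.1), leaving out mt-Rnr1 and mt-Rnr2, each left-out library, the compared groups alone and a replicate block.

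The members, the 18 lists and the tests were chosen with earlier results of these data known. Beside the 9 members, the text names from each pathway list up to 3 genes per comparison that passed, by size of change, with the same gene's other comparisons, and for each member the 3 most alike genes by Pearson r of log2(CPM + 1) among genes with a mean of at least 10 CPM. Fewer are printed, and 1 result is not reported here. The 5 genes of the closing observations were picked after their values were seen. Counting intervals and floors (3 counts) cover counting error only. Upstream sequences came from RefSeq's table for GRCm38.p6, and the 11 motifs were chosen after the sequences were at hand.

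Replicates differed beyond sampling noise in every group, with chi-square values of 15.3 to 135 for each degree of freedom, and all were kept apart.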

Additional observations from a re-analysis of the deposited data

How the results depend on the processing

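No called value of the 9 genes changed sign under any alternative. Of 675 alternative values of the members, 624 kept direction and call, 15 lost a call, 18 gained one and 18 changed sign. Of 489 values of other named genes, 89 lost a call and 5 gained one. Same-numbered positive and negative libraries deviated together only weakly (r of 0.0502, 0.00953 and 0.0111 in the NeuroD1 strain, 0.0388 and 0.0440 in the Glu strain). Libraries of unlike number had r of -0.0346 to 0.0222 in the NeuroD1 strain and of -0.0440 to 0.000269 in the Glu strain. With 2 Glu negative libraries the deviations mirror each other, so these r are not independent. The check cannot settle whether the numbers are pairs, and they were not taken as pairs. With the number as a replicate block the members called were 6, 0 and 0 in the NeuroD1 strain, the Glu strain and the difference, and the genes called 1956, 707 and 21, beside 2031, 951 and 16 without it. Genes called in the Glu strain were 1551 with no filter, 1514 with DESeq2 and 340 with the groups alone, and in the difference 25 with library totals, 338 with no filter, 180 with DESeq2 and 8 with limma voom. Between positive populations (1165) they were 1902 with no filter, 1830 with DESeq2, 646 with limma voom and 565 with the groups alone, and between negative populations (70) they were 245, 178 and 123 with no filter, DESeq2 and the groups alone. Leaving out 1 library gave 1301 to 1498 called genes in the NeuroD1 strain, 187 to 1126 in the Glu strain, 5 to 52 in the difference, 569 to 2182 between positive and 27 to 54 between negative populations. Members called were 2 in the difference with no filter or DESeq2, 5 between positive populations with DESeq2, and 1 between negative populations with library totals, no filter, DESeq2 or the groups alone, and with 1 library left out 3 to 5 in the NeuroD1 strain, 0 in the Glu strain, 0 to 2 in the difference, 2 to 3 between positive and 0 between negative populations. Uncalled values changed sign for Slc26a3 in the Glu strain (log2 fold change -0.39 with library totals, -0.014 with no filter, -0.012 with the groups alone, -0.46 with limma voom, -0.057 without mt-Rnr1 and mt-Rnr2, -0.66 with the replicate block, and -0.49 to 0.68 with 1 library left out). With 1 library left out they also did for Slc4a4 there (-0.45 to 0.33), Car1 (-0.38 to 0.043) and Car2 (-0.31 to 0.13) in the NeuroD1 strain, Car2 in the difference (-0.062 to 0.39), and Slc26a3 between negative populations (-0.32 to 0.85, and -0.24 with library totals). The cause was not tested. Library totals gave a median log2 fold change of all genes of -0.28 in the NeuroD1 strain (0.02 with TMM), -0.19 in the Glu strain (0.12), -0.51 between positive (-0.14) and -0.39 between negative populations (-0.01). With library totals 4 of 36 group means of the members moved by more than 1 SD, and with the longest transcript 19 of 36 levels per length did. Library sizes limit genes of few counts, such as Slc26a6 with 4 to 17 counts in NeuroD1 positive libraries.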

Other observations

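Counts were low for 2 receptors that drive duodenal bicarbonate secretion. Sctr, the secretin receptor, had 2 counts over the NeuroD1 positive libraries, 2 over the NeuroD1 negative libraries, 0 over the Glu positive libraries and 0 over the Glu negative libraries. Adora2b, an adenosine receptor coupled to Cftr, had 0 counts over the NeuroD1 positive libraries, 11 over the NeuroD1 negative libraries, 0 over the Glu positive libraries and 9 over the Glu negative libraries. A count of 0 allows up to 3 counts per group, for counting error only. Kcne2, a potassium channel subunit known from stomach, had 12 counts over the NeuroD1 positive libraries, 12 over the NeuroD1 negative libraries and 0 over both Glu populations. The calcium-activated chloride channel Ano1 had 7.17 ± 3.71 CPM in NeuroD1 positive, 8.12 ± 0.60 CPM in NeuroD1 negative, 5.38 ± 1.84 CPM in Glu positive and 7.66 ± 4.49 CPM in Glu negative cells (SD, n = 3, 3, 3 and 2). Slc26a9, an anion transporter known from stomach and airway, had 5.21 ± 1.85 CPM in NeuroD1 positive, 8.50 ± 2.29 CPM in NeuroD1 negative, 3.17 ± 2.12 CPM in Glu positive and 0.60 ± 0.54 CPM in Glu negative cells.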
